A study of Homo sapiens with 6 samples.

Results

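Chromatin modifiers and remodellers are the proteins that write, remove and read chemical marks on histones and DNA and that move nucleosomes. The genes described here were chosen by name among the genes listed in the count files. They are the protein-coding genes of the lysine methyltransferase (KMT, SETD, NSD, EZH), arginine methyltransferase (PRMT), demethylase (KDM), acetyltransferase (KAT), deacetylase (HDAC, SIRT), DNA methylation (DNMT, TET), remodeller (SMARC, ARID, CHD, BAZ), reader (BRD, CBX, ING, PHF) and high mobility group (HMGA, HMGB, HMGN) families with a mean count of at least 10. This gave 56 genes of 5187 listed, and no listed gene of these families fell below the count minimum. The names take 2 genes that belong to no chromatin family, NSDHL, an enzyme of sterol synthesis, and CHD9NB, a gene named for its position beside CHD9; they are counted but kept apart.

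The RNA came from Huh7, a line established from a human liver carcinoma. According to the sample labels, 3 cultures received GABA (gamma-aminobutyric acid, a signalling amino acid) for 24 h, at a dose not stated there, and 3 control cultures were kept without GABA. Each group's libraries are named biological replicates 1 to 3, and all 6 share a single cell line and time point, so p-values measure the spread between these cultures only. The comparison asks which transcripts differ with GABA, in a series on this molecule as a gene regulator in liver cancer metastasis.

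A chromatin state is kept by opposing enzymes. Methyltransferases and acetyltransferases add marks to histone tails, demethylases and deacetylases take them off, and readers recruit complexes to the marked sites. DNMT1 copies DNA methylation onto newly made strands, TET enzymes oxidise it, and remodellers of the SWI/SNF (BAF), CHD and ISWI families use ATP to shift or evict nucleosomes. Several of these genes, among them KMT2C, KMT2D, ARID1A and SMARCA4, are recurrently mutated in cancers, liver cancer included for some of them.

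The listed genes are a part of the annotated genes and follow this same comparison. Across the 4981 genes tested, p-values rose with the place in the list (Spearman correlation 0.93, a description across genes, which are not independent), and the smallest absolute log2 fold change was 0.12. Counts on the listed genes summed to 7719243 to 8392945 per GABA library and 7702666 to 8235028 per control library, which are not full library depths. The chromatin genes stood between positions 105 and 5074 in the list. Of 176 protein-coding symbols of these families in the annotation 31.8% were listed, against 22.3% of all 19951 protein-coding genes, a set that includes genes silent in these cells. Unlisted members such as EZH2, HDAC1, ARID1A, KDM1A and every sirtuin are not analysed here. Of 13 liver markers 2 (KRT8 and KRT18) were listed, of 6 immune and 4 endothelial markers 0, and of 4 fibroblast markers 2 (COL3A1 and PDGFRB), whose summed level was 48.2 to 54.3 CPM in GABA libraries and 52.4 to 68.4 CPM in control libraries. ALB and AFP are not analysed here, so the listed genes do not test the identity of the line.

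To show what kind of promoter the clearest changes had, the sequences of the 2 rising and 2 falling members with the smallest p-values are given from RefSeq (GRCh38.p14), 250 bases before to 50 bases after the annotated start, in lower case with capitals at matches to any of the 7 motifs named after them. DNMT1 lies at chr19:10194904-10195203 on the minus strand, PHF19 at chr9:120868862-120869161 on the minus strand (the first of 2 listed starts), KMT5B at chr11:68213599-68213898 on the minus strand (the first of 3) and PRMT3 at chr11:20387466-20387765 on the plus strand.
DNMT1: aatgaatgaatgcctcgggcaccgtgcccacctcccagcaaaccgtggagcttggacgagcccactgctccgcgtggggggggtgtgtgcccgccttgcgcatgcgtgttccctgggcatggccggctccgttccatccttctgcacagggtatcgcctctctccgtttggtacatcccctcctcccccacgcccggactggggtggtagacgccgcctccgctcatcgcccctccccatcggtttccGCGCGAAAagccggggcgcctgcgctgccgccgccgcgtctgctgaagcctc
PHF19: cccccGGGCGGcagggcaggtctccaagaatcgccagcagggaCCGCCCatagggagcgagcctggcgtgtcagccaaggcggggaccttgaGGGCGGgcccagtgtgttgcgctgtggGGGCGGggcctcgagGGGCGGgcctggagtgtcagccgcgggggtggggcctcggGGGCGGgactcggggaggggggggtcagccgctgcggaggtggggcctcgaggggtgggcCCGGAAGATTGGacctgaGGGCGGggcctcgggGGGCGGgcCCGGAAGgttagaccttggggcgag
KMT5B: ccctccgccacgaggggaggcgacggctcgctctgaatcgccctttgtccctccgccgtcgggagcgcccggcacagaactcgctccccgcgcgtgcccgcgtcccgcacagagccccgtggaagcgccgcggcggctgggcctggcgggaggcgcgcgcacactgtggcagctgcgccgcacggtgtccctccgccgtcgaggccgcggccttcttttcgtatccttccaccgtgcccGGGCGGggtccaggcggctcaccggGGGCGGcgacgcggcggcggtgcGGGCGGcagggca
PRMT3: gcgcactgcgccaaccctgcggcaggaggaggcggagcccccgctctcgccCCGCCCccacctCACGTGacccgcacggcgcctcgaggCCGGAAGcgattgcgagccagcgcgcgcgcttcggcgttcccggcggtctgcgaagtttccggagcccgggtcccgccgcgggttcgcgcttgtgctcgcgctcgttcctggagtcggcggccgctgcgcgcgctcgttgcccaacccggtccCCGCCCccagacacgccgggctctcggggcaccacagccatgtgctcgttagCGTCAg
The motifs searched on both strands, with overlaps allowed, were the E2F site (TTTGGCGC, TTTCCCGC, TTTCGCGC or TTTGCCGC), the GC box GGGCGG, the motif known as the CCAAT box, the ETS core CCGGAAG, the E-box CACGTG, the CRE core TGACG and the YY1 core AAGATGG. Adjoining matches join into a longer run of capitals. DNMT1 held 1 E2F match and no GC box, PHF19 held 8 GC boxes, 2 ETS cores and 1 CCAAT box, KMT5B held 3 GC boxes, and PRMT3 held 2 GC boxes, 1 ETS core, 1 CRE core and 1 E-box. All 4 windows were rich in G and C, from 68.3% in DNMT1 to 77.3% in KMT5B.

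Promoters of this kind were shared by rising and falling members. RefSeq windows were matched for 47 of the 56 genes, taking the first listed start of each. The median GC content was 67.2% over 30 rising members and 74.3% over 17 falling members, against 58.3% over all 27305 promoters in the table. A GC box was present in 73.3% of rising and 76.5% of falling members (44.6% of all promoters), an E2F match in 6.67% and 11.8% (3.33% of all), and a CCAAT box in 33.3% and 29.4% (35.7% of all). The ETS core was present in 16.7% and 23.5% (10.7% of all), the CRE core in 26.7% and 29.4% (25.01% of all), the E-box in 10.0% and 11.8% (7.43% of all) and the YY1 core in 16.7% and 5.88% (6.06% of all). These matches are letters in a window and no test was made of them.

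All 56 genes passed the threshold (edgeR quasi-likelihood test, Benjamini-Hochberg adjusted p of 0.05 or less over all 4981 tested genes), 34 higher and 22 lower with GABA. Of all tested genes 98.7% passed, 47.6% as higher and 51.2% as lower, so that passing says little in this list. Counts by role or list below are to be read beside these shares. The adjustment covers only listed genes, which follow this comparison, so an adjusted p is not a false discovery rate over all genes. Near the threshold it moved the edgeR p little (HDAC9, 0.0488 to 0.0494). The members' shares were 60.7% higher and 39.3% lower. In 54 of 56 members the groups did not overlap, against 92.5% of all tested genes. The changes were small: the median absolute log2 fold change was 0.30 among members (quartiles 0.25 and 0.38) and 0.40 among all tested genes, and 12.5% of members reached 0.5, against 36.6% of all tested genes. The median signed log2 fold change was 0.24 over the members and -0.18 over all tested genes. Each library was also corrected for transcript GC content and length, an alternative chosen after seeing the data and called the GC correction here; its values stand beside a result where it ends a call or moves a value by over 1.5 times. It left 26 members higher and 12 lower, and over all tested genes 1920 higher and 1930 lower. These are bulk cultures, so fewer cells of a kind and less RNA per cell cannot be told apart.

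Together the members held 1.17%, 1.15% and 1.19% of listed counts in GABA replicates 1 to 3, against 1.08%, 1.11% and 1.00% in control replicates 1 to 3. The GABA libraries all lay above the control libraries (exact permutation test, 2-sided, p = 0.10, the smallest that 3 against 3 allows). Mitochondrially encoded transcripts took 6.66% to 7.04% of counts in GABA libraries and 7.14% to 9.11% in control libraries; with these left out of the total, the members' share was 1.26 ± 0.02% with GABA and 1.15 ± 0.04% in control (SD, n = 3 each; exact permutation p = 0.10).

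**Figure D1:**
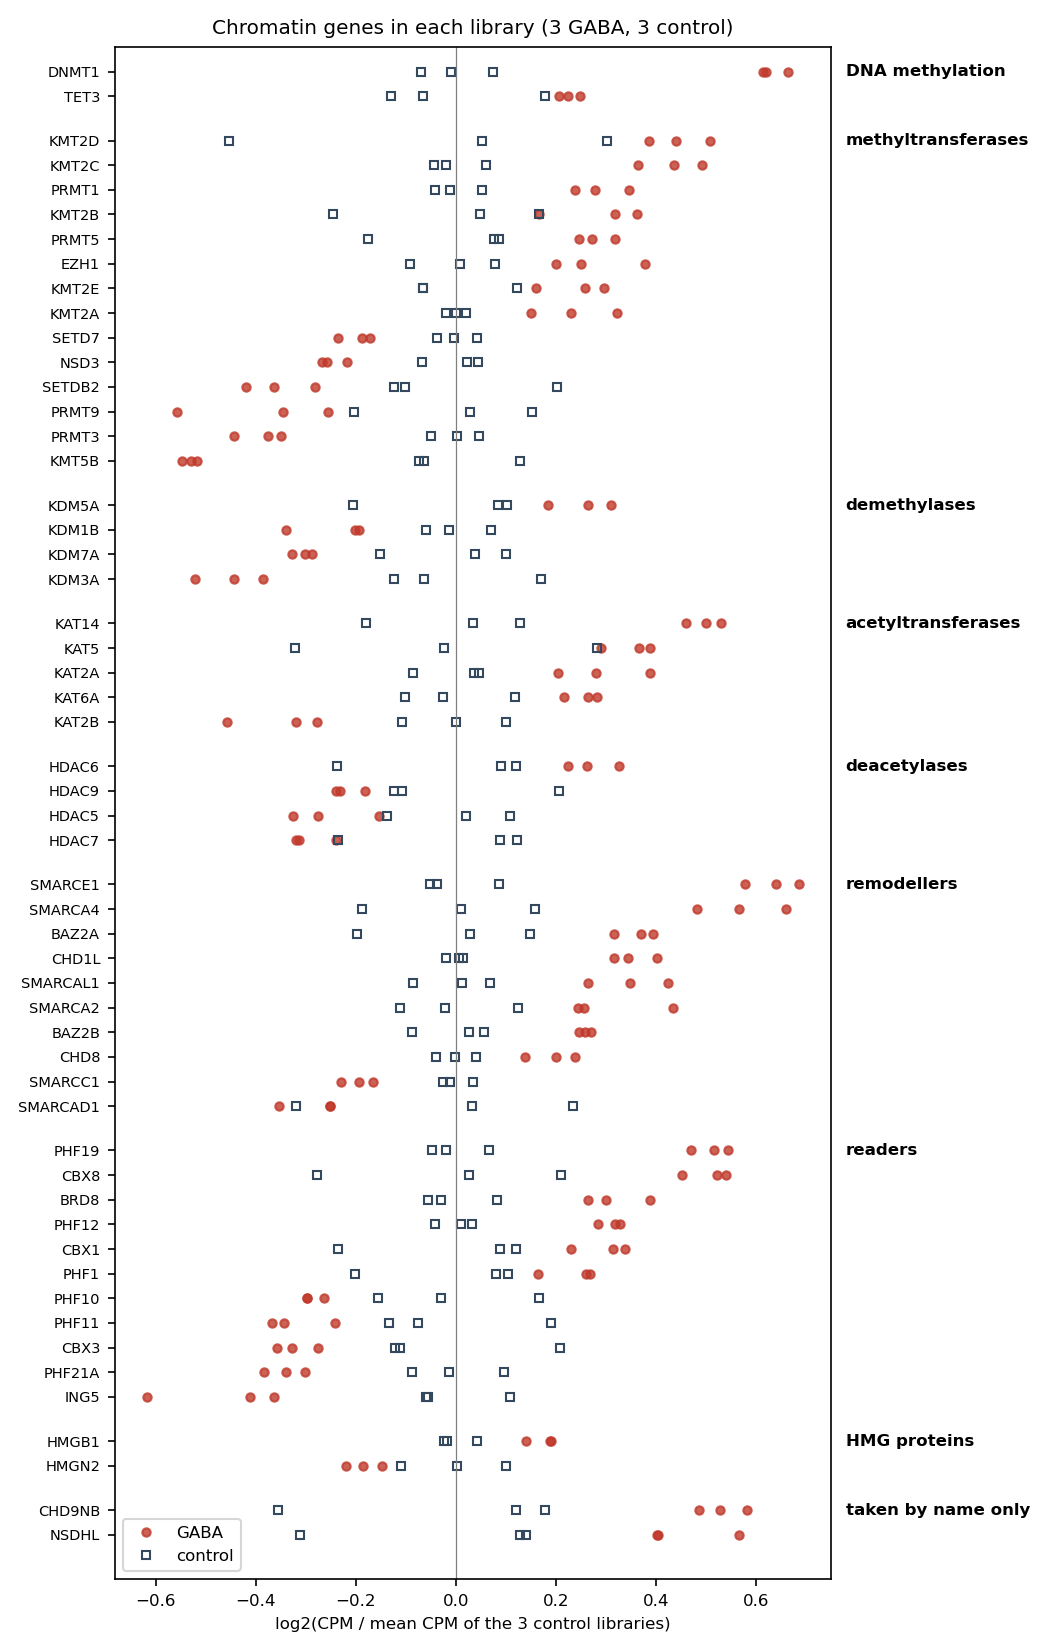
The chromatin genes reported by name, 54 of the 56, in each of the 6 libraries, as log2 of its CPM over the mean CPM of the 3 control libraries, grouped by role; filled circles are GABA libraries and open squares control libraries. The groups overlap in SMARCAD1 and nearly touch in KMT2B, KAT5 and HDAC7.

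DNA methylation genes were represented by 2 members, and both rose. DNMT1 (ENSG00000130816, chr19:10133345-10231286, minus strand), the maintenance methyltransferase whose promoter is shown above, had 402, 401 and 415 CPM (a count scaled to the TMM-adjusted sum over the listed genes) in the GABA libraries and 276, 260 and 250 CPM in the control libraries. The 2 groups stood well apart, and the log2 fold change was 0.63 ± 0.06 (SE; 1.55-fold, adjusted p = 1.9e-05), a value that ran from 0.60 to 0.67 with any library left out. TET3, a methylcytosine dioxygenase, had 191, 194 and 188 CPM with GABA and 156, 184 and 149 CPM in control, a change of 0.23 ± 0.08 (adjusted p = 0.020). Its control replicate 2 came close to the GABA values, and its call was lost without GABA replicate 1, GABA replicate 2 or control replicate 1 (adjusted p = 0.057, 0.063 and 0.076; log2 fold changes 0.23, 0.22 and 0.19) and after the GC correction (0.09, adjusted p = 0.17).

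Around these enzymes, 11 genes of 20 in a list of DNA methylation readers, partners and turnover factors were tested, of which 5 were higher, 5 lower and 1 did not pass; without GABA replicate 2, 3 were higher. UHRF1, which brings DNMT1 to hemimethylated sites behind the replication fork, had 219, 226 and 244 CPM with GABA and 167, 153 and 125 CPM in control, a change of 0.63 ± 0.10 (adjusted p = 2.4e-04). Its GABA and control values did not overlap. CDCA7L, a relative of the activator of the HELLS remodeller, had 0.54 ± 0.08 (118 ± 7.88 CPM with GABA and 81.6 ± 2.93 CPM in control), with 20.4% of its exon bases in other genes. UHRF2, the paralog of UHRF1, had -0.23 ± 0.07 and OGT, the glycosyltransferase that binds TET proteins, -0.29 ± 0.06 (1372 ± 36.1 CPM with GABA and 1680 ± 93.5 CPM in control); these last 2 were named after their values were seen. UHRF2 had -0.11 after the GC correction (adjusted p = 0.079) and OGT -0.13 (adjusted p = 0.018).

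Among 14 methyltransferases 8 rose and 6 fell, against 47.6% and 51.2% of all tested genes. The KMT2 genes, which methylate histone H3 at active promoters and enhancers, all rose where listed, 5 of 5 at 0.24 to 0.45 on the log2 scale, though KMT2B and KMT2D did not pass after the GC correction. KMT2C, an enhancer methyltransferase, had 281, 295 and 307 CPM with GABA and 212, 215 and 228 CPM in control (0.43 ± 0.07, adjusted p = 2.5e-04). KMT2D, its paralog, had 892, 860 and 936 CPM with GABA and 682, 811 and 481 CPM in control (0.45 ± 0.14, adjusted p = 0.010). Its control libraries were far apart, with replicate 3 lowest, and without that library the value was 0.26 (adjusted p = 4.5e-04), and after the GC correction 0.12 (adjusted p = 0.20). KMT2A, the MLL1 enzyme of leukaemia translocations, had 416, 393 and 443 CPM with GABA and 350, 359 and 355 CPM in control (0.24 ± 0.07, adjusted p = 0.0064), with 18.9% of its exon bases shared with other genes and a value of 0.14 after the GC correction (adjusted p = 0.023). KMT2B had 0.28 ± 0.10, or 0.17 without control replicate 3, and lost its call without GABA replicate 1 or 3 (adjusted p = 0.074 and 0.060; log2 fold changes 0.25 and 0.27) and after the GC correction (0.02, adjusted p = 0.78). KMT2E, a relative without established histone methyltransferase activity, had 0.24 ± 0.07 and lost its call without GABA replicate 2 (0.21, adjusted p = 0.051); after the GC correction it had 0.37 (adjusted p = 2.3e-05).

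A list of MLL/COMPASS partner subunits, not all of which belong to complexes of the KMT2 genes listed here, moved the same way. Of 15 in the list 6 were listed in the files, and all 6 rose (median 0.27), against 47.6% of all tested genes. In edgeR, DESeq2 and limma-voom 0 were lower, also at an unadjusted p under 0.05. The 3 tools used the same libraries, so this count adds no support to the 6 rises. Of the 6 genes, 1 shares 66.0% of its exon bases with other genes. After the GC correction 4 of the 6 were called higher. BOD1, also known for chromosome biorientation, had 249, 254 and 238 CPM with GABA and 202, 217 and 184 CPM in control (0.30 ± 0.07), and HCFC2, a relative of host cell factor 1, 98.6 ± 7.31 and 78.5 ± 6.49 CPM in the same order (0.33 ± 0.09; 0.56 after the GC correction).

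The largest fall of any member was that of KMT5B (ENSG00000110066, chr11:68154863-68213828, minus strand), which methylates histone H4 in heterochromatin. It had 104, 106 and 105 CPM with GABA and 144, 145 and 166 CPM in control (-0.53 ± 0.08, adjusted p = 2.0e-04). The GABA values were nearly equal and lay far below every control value. The value after the GC correction was -0.35 (adjusted p = 6.8e-05). SETDB2, a methyltransferase of silent chromatin, NSD3, a methyltransferase amplified in some cancers, and SETD7, which methylates histone and other proteins, had -0.35 ± 0.11, -0.25 ± 0.06 and -0.20 ± 0.07. The call of SETD7 was lost without GABA replicate 1 (-0.18, adjusted p = 0.064) and with DESeq2 (adjusted p = 0.065). The GC correction ended the calls of SETDB2 (-0.17, adjusted p = 0.093) and SETD7 (-0.10, adjusted p = 0.12). EZH1, a catalytic subunit of Polycomb complex PRC2, went up, with 261, 231 and 239 CPM in GABA libraries and 202, 212 and 189 CPM in control libraries (0.28 ± 0.07, adjusted p = 0.0050).

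The arginine methyltransferases split. PRMT1, the main asymmetric enzyme, had 424, 457 and 436 CPM with GABA and 357, 373 and 349 CPM in control (0.29 ± 0.06, adjusted p = 0.0020; 0.16 after the GC correction, adjusted p = 0.011), and PRMT5, the main symmetric enzyme, 212, 218 and 208 CPM with GABA and 185, 186 and 155 CPM in control (0.28 ± 0.08, adjusted p = 0.0069), although 27.1% of its exon bases overlap other genes. PRMT3, a cytosolic enzyme that modifies a ribosomal protein, had 159, 162 and 152 CPM with GABA and 207, 200 and 213 CPM in control (-0.39 ± 0.07, adjusted p = 4.8e-04). PRMT9, a modifier of a splicing factor, was lower at 16.3 ± 1.70 CPM with GABA and 21.2 ± 2.60 CPM in control (-0.38 ± 0.15, adjusted p = 0.024). The call of PRMT9 was lost without GABA replicate 2 or 3 and without control replicate 1 or 3 (adjusted p = 0.052, 0.097, 0.061 and 0.061; log2 fold changes -0.40, -0.30, -0.37 and -0.30), with DESeq2 (adjusted p = 0.067) and after the GC correction (-0.22, adjusted p = 0.14). All 4 enzymes had groups that did not overlap.

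Methyltransferases and demethylases that carry other names, listed with relatives by domain that need not have either activity, were mostly higher. Of 14 tested genes 11 were up and 3 down (38 genes in the list). The 3 falls shrank to 0 with DESeq2 and without GABA replicate 2 or 3, of which 0, 1 and 0 had an unadjusted p under 0.05. They shrank to 1 without GABA replicate 1 or control replicate 3 and after the GC correction. JMJD8, a JmjC-domain protein, had 0.77 ± 0.14 with 37.4% of its exon bases in other genes, and PRDM15, a zinc finger factor, 0.70 ± 0.11. The histone H3 methyltransferases of silent chromatin EHMT1, EHMT2 and SUV39H1, named after their values were seen, had 0.29 ± 0.08, 0.37 ± 0.10 and 0.49 ± 0.13; SUV39H1 shares 20.3% of its exon bases with other genes. EHMT1 had 0.17 and EHMT2 0.19 after the GC correction (adjusted p = 0.0066 and 0.017).

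Of the 4 demethylases 3 fell, against 51.2% of all tested genes. KDM3A, a JmjC enzyme of histone H3 that hypoxia induces, had 117, 128 and 123 CPM with GABA and 154, 160 and 188 CPM in control (-0.45 ± 0.09, adjusted p = 9.9e-04). KDM7A, which removes repressive methyl groups, had 80.4 ± 1.17 CPM with GABA and 99.3 ± 8.82 CPM in control (-0.30 ± 0.09, adjusted p = 0.0074), and KDM1B, the flavin-dependent LSD2, 107 ± 5.98 and 127 ± 5.74 CPM in the same order (-0.24 ± 0.08, adjusted p = 0.012; -0.20 and adjusted p = 0.064 without GABA replicate 1). In all 3 every GABA library was below every control library. With the GC correction KDM7A had -0.16 (adjusted p = 0.056) and KDM1B -0.08 (adjusted p = 0.25), so that KDM3A was the only called fall of the 3. KDM5A, which removes methyl groups from active promoters and so works against the KMT2 enzymes, had 254, 262 and 240 CPM with GABA and 227, 224 and 183 CPM in control (0.25 ± 0.08, adjusted p = 0.015). Without control replicate 3 its value was 0.16, and without GABA replicate 2 the call was lost (0.22, adjusted p = 0.059).

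**Figure D2:**
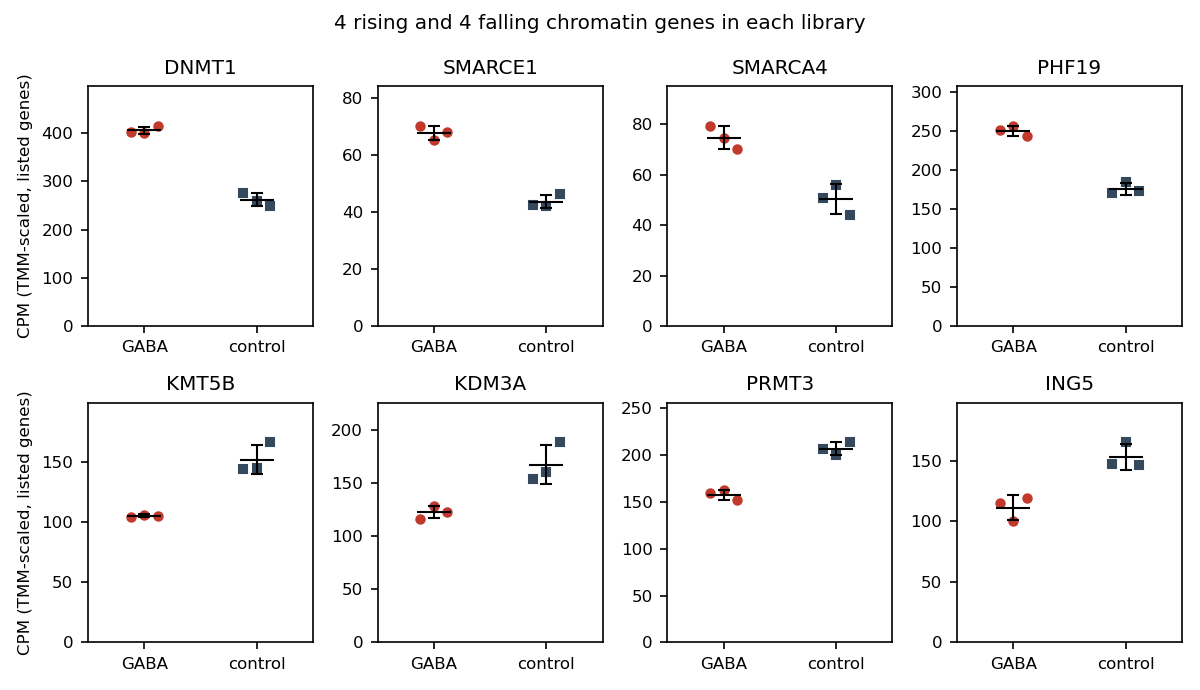
CPM in each library for 4 rising members (DNMT1, SMARCE1, SMARCA4, PHF19) and the 4 largest falls (KMT5B, KDM3A, PRMT3, ING5), GABA at the left and control at the right of each panel; points are libraries, bars the mean and SD (n = 3), and axes start at 0. In each panel the 3 GABA points lie outside the range of the 3 control points.

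Acetyltransferases were higher in 4 of 5 members, against 47.6% of all tested genes. KAT14, a subunit of the ATAC complex, had 73.2, 69.8 and 71.8 CPM with GABA and 52.0, 44.8 and 55.5 CPM in control (0.50 ± 0.10, adjusted p = 0.0012), with 16.7% of its exon bases in other genes. KAT5 (TIP60), which acts in the DNA damage response, had 49.8 ± 1.76 CPM with GABA and 39.1 ± 8.14 CPM in control (0.35 ± 0.13, adjusted p = 0.026). Its exons share 38.6% of bases with other genes, its value was 0.21 without control replicate 3 (adjusted p = 0.055), and its call was also lost without GABA replicate 1, GABA replicate 2 or control replicate 1 (0.34, 0.33 and 0.33; adjusted p = 0.069, 0.072 and 0.065) and after the GC correction (0.17, adjusted p = 0.14). KAT6A (MOZ) had 0.25 ± 0.07 (208 ± 4.99 CPM with GABA and 174 ± 13.6 CPM in control).

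KAT2A (GCN5) and KAT2B (PCAF), alternative catalytic subunits of the SAGA and ATAC coactivators, moved apart. KAT2A, with 10.7% of its exon bases in other genes, had 232, 220 and 250 CPM with GABA and 196, 197 and 180 CPM in control (0.29 ± 0.07, adjusted p = 0.0036), while KAT2B had 48.9, 50.4 and 44.5 CPM with GABA and 56.7, 61.1 and 65.5 CPM in control (-0.35 ± 0.10, adjusted p = 0.0069). KAT2A had 0.10 after the GC correction (adjusted p = 0.13) and lost its call, and KAT2B had -0.22 (adjusted p = 0.027). Their count ratio, which no scaling of whole libraries can change, was 4.74, 4.37 and 5.62 in the GABA libraries and 3.46, 3.23 and 2.75 in the control libraries. The ratio was 1.56-fold higher with GABA, without overlap. Its exact permutation p was the smallest of the design (2-sided p = 0.10, or 0.40 after Benjamini-Hochberg adjustment over 8 paralog pairs). Each gene's CPM already separated the groups, in opposite directions. The lack of overlap and this p therefore followed from the single genes and add no support. The 2 transcripts differ in GC content (59.9% for KAT2A and 44.3% for KAT2B), and on the log2 scale the difference in their changes was 0.32 after the GC correction, against 0.64. Of acetyltransferases with other names and SAGA subunits 5 of 8 tested genes rose and 3 fell (32 in the list; 3 rose without GABA replicate 3, and 1 fell after the GC correction). TADA3, the adaptor of both complexes, had 0.43 ± 0.07, with 19.7% of its exon bases in other genes, and NCOA3, a nuclear receptor coactivator, -0.45 ± 0.06 (209 ± 4.25 CPM with GABA and 284 ± 9.16 CPM in control). TADA3 had 0.28 after the GC correction (adjusted p = 3.2e-04). EP300, named after its value was seen, had 0.21 ± 0.07 and lost its call without GABA replicate 2 or 3, without control replicate 1 and after the GC correction (0.19, 0.19, 0.19 and 0.10; adjusted p = 0.061, 0.064, 0.058 and 0.093).

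Of the deacetylases, the listed class IIa enzymes, which shuttle between nucleus and cytoplasm, all had lower values. HDAC7, with 11.2% of its exon bases in other genes, had 310, 309 and 326 CPM with GABA and 409, 419 and 327 CPM in control (-0.29 ± 0.09, adjusted p = 0.0097). Control replicate 3 was the library that nearly met the GABA values. The GC correction gave a larger fall of -0.49 (adjusted p = 5.7e-07). HDAC5 had 60.9 ± 3.76 CPM with GABA and 72.5 ± 6.16 CPM in control (-0.25 ± 0.10, adjusted p = 0.026), and HDAC9 76.8 ± 1.65 and 89.3 ± 11.9 CPM in the same order (-0.22 ± 0.10, adjusted p = 0.049). Both calls depended on the setting. That of HDAC5 was lost without GABA replicate 1 or 3 or control replicate 1 or 2 (-0.24, -0.21, -0.24 and -0.20; adjusted p = 0.080, 0.098, 0.064 and 0.079) and with DESeq2 or its size factors (adjusted p = 0.071 and 0.058), while the GC correction gave -0.44 (adjusted p = 1.3e-04). The value of HDAC9 was -0.11 without control replicate 3 (adjusted p = 0.19), and its call was also lost without any 1 GABA library (-0.21, -0.24 and -0.21; adjusted p = 0.12, 0.087 and 0.12) and in 7 of the other settings (adjusted p = 0.051 to 0.12), DESeq2 and limma-voom among them, and after the GC correction (-0.10, adjusted p = 0.24). HDAC6, the cytoplasmic tubulin deacetylase, went up, with 111 ± 3.94 CPM with GABA and 92.0 ± 12.1 CPM in control (0.27 ± 0.10, adjusted p = 0.020). Its value was 0.16 without control replicate 3, and the call was lost without GABA replicate 3 (0.24, adjusted p = 0.072) and after the GC correction (0.14, adjusted p = 0.074).

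Corepressor subunits of NuRD, SIN3, CoREST and NCoR partner deacetylases that need not be those listed here. Of 12 tested and 35 in the list, 7 were higher and 5 lower, with 4 higher without GABA replicate 2 or 3. SUDS3, a SIN3 subunit, fell the most of these, with 47.5, 45.2 and 52.8 CPM in GABA libraries and 81.9, 76.4 and 68.9 CPM in control libraries (-0.64 ± 0.10, adjusted p = 3.1e-04). TRIM28 (KAP1), the corepressor of zinc finger proteins, had 628, 641 and 656 CPM with GABA and 538, 495 and 492 CPM in control (0.34 ± 0.06, adjusted p = 7.1e-04), but did not pass after the GC correction (0.07, adjusted p = 0.28).

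ATP-dependent remodellers and their subunits rose in 8 of 10 members, against 47.6% of all tested genes. SMARCE1 (ENSG00000073584, chr17:40624962-40648864, minus strand), a DNA-binding subunit of BAF complexes, had the largest log2 fold change of the 56. It had 70.1, 65.1 and 68.0 CPM with GABA and 42.5, 42.1 and 46.3 CPM in control (0.63 ± 0.09, adjusted p = 1.8e-04). No control value came near the GABA values, though 19.8% of its exon bases lie in other genes. SMARCA4 (ENSG00000127616, chr19:10960825-11079426, plus strand), the BRG1 ATPase of the same complexes, had 79.4, 74.4 and 70.2 CPM with GABA and 50.6, 56.1 and 44.1 CPM in control (0.57 ± 0.11, adjusted p = 7.6e-04; 0.38 after the GC correction, adjusted p = 5.9e-04). SMARCA2 (BRM), the alternative ATPase, had 90.6, 89.8 and 102 CPM with GABA and 82.7, 70.2 and 74.8 CPM in control (0.31 ± 0.09, adjusted p = 0.0087). The ratio of SMARCA4 to SMARCA2 counts was 0.88, 0.83 and 0.69 with GABA and 0.61, 0.80 and 0.59 in control, so that the groups overlapped (exact permutation test, 2-sided, p = 0.20; adjusted p = 0.53 over 8 pairs). The difference in their log2 changes was -0.06 after the GC correction, against 0.26.

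A core scaffold of the same complexes went the other way. SMARCC1 (BAF155) had 399, 390 and 407 CPM with GABA and 468, 453 and 449 CPM in control (-0.20 ± 0.06, adjusted p = 0.0097). SMARCAD1, a remodeller of replicated and damaged chromatin, had 118, 126 and 126 CPM with GABA and 154, 121 and 177 CPM in control (-0.28 ± 0.11, adjusted p = 0.030). Its groups overlapped, its value was -0.16 without control replicate 3 (adjusted p = 0.063), and its call was also lost without control replicate 1 or any 1 GABA library (-0.27, -0.25, -0.30 and -0.30; adjusted p = 0.074, 0.10, 0.062 and 0.065) and with the size factors of DESeq2 (adjusted p = 0.062). It had -0.03 after the GC correction (adjusted p = 0.70). In the BAF, PBAF and ISWI partner list 6 of 7 tested genes rose and SS18 fell (23 in the list). After the GC correction 4 were called higher. The fall of SS18 was lost with DESeq2, its size factors or library size only and without GABA replicate 1 or 2 or control replicate 1. It was also lost after the GC correction (-0.04, adjusted p = 0.58). In each of these settings 0 genes of the list were lower with an unadjusted p under 0.05. ERCC6L, a mitotic translocase counted in this list though not a subunit of these complexes, had 0.74 ± 0.12. DPF3, a BAF subunit that reads acetylated histones, had 0.67 ± 0.11.

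Other remodellers that rose were BAZ2A, CHD1L, SMARCAL1, BAZ2B and CHD8. BAZ2A (TIP5), which silences ribosomal DNA repeats, had 869, 824 and 856 CPM with GABA and 675, 733 and 578 CPM in control (0.36 ± 0.08, adjusted p = 0.0021). CHD1L, a remodeller that poly(ADP-ribose) activates and that was first isolated as a gene amplified in liver cancer, had 186, 183 and 194 CPM with GABA and 147, 145 and 148 CPM in control (0.35 ± 0.07, adjusted p = 7.5e-04). Its control values were nearly identical. SMARCAL1, which restarts stalled replication forks, had 0.35 ± 0.08, BAZ2B 0.26 ± 0.09 and CHD8, a regulator of beta-catenin targets, 0.19 ± 0.06. The call of BAZ2B was lost without control replicate 1 (0.21, adjusted p = 0.060), while the GC correction gave it 0.40 (adjusted p = 1.8e-04). The call of CHD8 was lost without GABA replicate 3 (0.17, adjusted p = 0.061) and, at the threshold, GABA replicate 2 (0.19, adjusted p = 0.050).

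The INO80, SRCAP and TIP60 complexes, which exchange histone variants, had 9 of 12 tested genes up and 3 down (29 in the list; 1 down without GABA replicate 1). After the GC correction 4 were up and 2 down. RUVBL2, their shared AAA+ helicase, had 291, 281 and 293 CPM with GABA and 228, 220 and 166 CPM in control (0.49 ± 0.10, adjusted p = 0.0013; 0.30 after the GC correction, adjusted p = 7.4e-04). INO80C had 23.3 ± 1.82 CPM with GABA and 14.7 ± 1.31 CPM in control (0.67 ± 0.14, adjusted p = 0.0013). BRD8, a reader in the TIP60 complex and a member here, had 153, 149 and 163 CPM with GABA and 120, 122 and 132 CPM in control (0.32 ± 0.07, adjusted p = 0.0027).

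**Figure D3:**
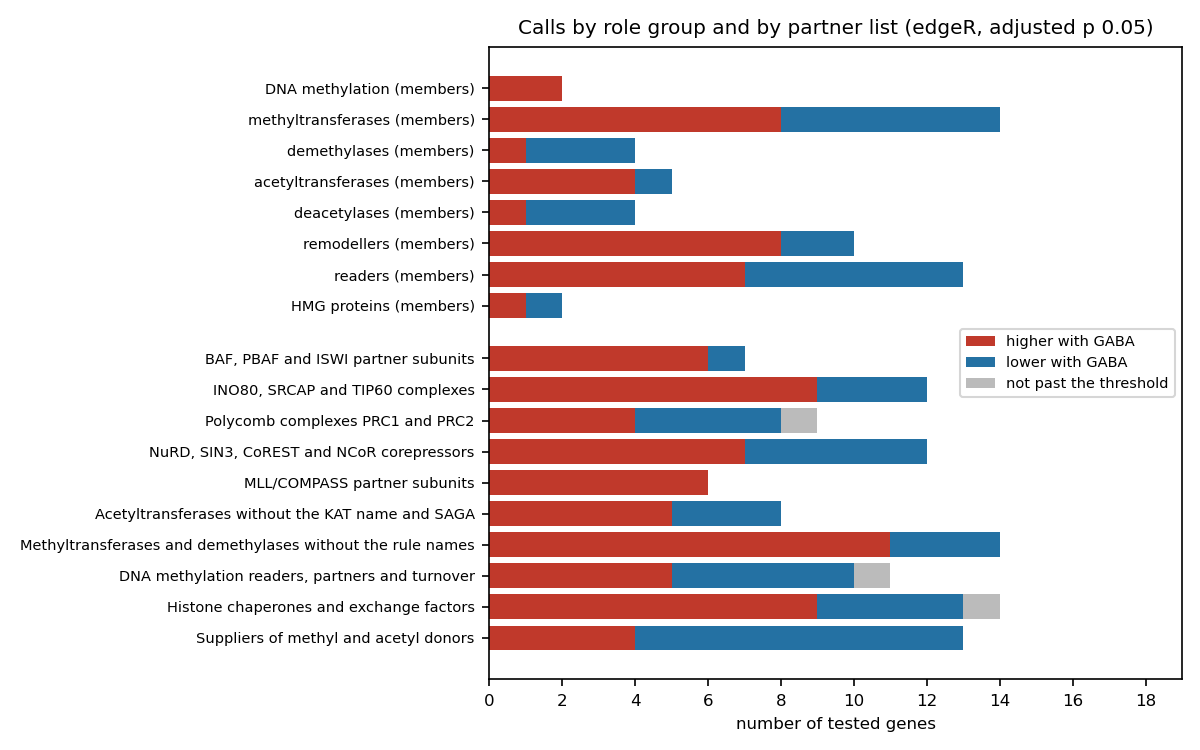
Number of tested genes higher, lower or not past the threshold (edgeR, adjusted p of 0.05) in each role group of the members and in each of 10 lists of partner genes. Over all tested genes 47.6% were higher and 51.2% lower. The remodellers (8 of 10 higher) and the MLL/COMPASS partners (6 of 6) lie on one side. The list of suppliers of methyl and acetyl donors (9 of 13 lower), which also holds genes that use a donor, lies on the other.

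Readers of histone marks gave 7 higher and 6 lower of 13, against 47.6% and 51.2% of all tested genes. PHF19 (ENSG00000119403, chr9:120855652-120894896, minus strand), a Polycomb-like subunit that brings PRC2 to unmethylated CpG islands, had 251, 256 and 243 CPM with GABA and 170, 184 and 173 CPM in control (0.51 ± 0.06, adjusted p = 7.6e-05). It stood clear of the control range, as did CBX8, a chromodomain subunit of PRC1, at 27.0, 28.7 and 28.3 CPM with GABA and 22.8, 20.1 and 16.3 CPM in control (0.50 ± 0.14, adjusted p = 0.0059). PHF1, the other Polycomb-like member, had 0.23 ± 0.08; its value was 0.14 without control replicate 3, and its call was lost without GABA replicate 1 or 3 (0.22 and 0.21; adjusted p = 0.069 and 0.071) and after the GC correction (0.03, adjusted p = 0.65).

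Other Polycomb genes were few and mixed, with 4 higher, 4 lower and 1 (BMI1) not passing of 9 tested and 39 in the list; 2 were lower without GABA replicate 1 or 3 and with DESeq2, and 2 were higher and 2 lower after the GC correction. BMI1 had -0.18 ± 0.08 (adjusted p = 0.054), or -0.26 without control replicate 2 (adjusted p = 0.0072), -0.09 without control replicate 3 and 0.01 after the GC correction (adjusted p = 0.13 and 0.91). MGA, a subunit of a variant PRC1, had 298 ± 7.14 CPM with GABA and 230 ± 12.4 CPM in control (0.37 ± 0.07), and PCGF5, a subunit of another variant, 198 ± 2.11 and 265 ± 29.6 CPM in the same order (-0.42 ± 0.08; -0.16 after the GC correction, adjusted p = 0.0063).

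The heterochromatin protein 1 genes moved apart. CBX1 (HP1 beta) had 347, 341 and 322 CPM with GABA and 298, 292 and 233 CPM in control (0.29 ± 0.09, adjusted p = 0.0094). CBX3 (HP1 gamma) had 275, 281 and 291 CPM with GABA and 326, 324 and 407 CPM in control (-0.32 ± 0.09, adjusted p = 0.0061); it has processed pseudogenes, so its reads are uncertain. The ratio of CBX1 to CBX3 counts was 1.26, 1.21 and 1.11 in GABA libraries and 0.92, 0.90 and 0.57 in control libraries. It was thus above 1 in every GABA library and below 1 in every control library (1.53-fold). The exact permutation test gave a 2-sided p = 0.10 (adjusted p = 0.40 over 8 pairs). Here too the CPM of each gene already separated the groups, in opposite directions. The lack of overlap and this p were therefore fixed by the single genes. Without control replicate 3 the log2 fold changes were 0.19 and -0.21, and that of the ratio was 0.39 in place of 0.61. CBX3 had -0.15 (adjusted p = 0.016) and CBX1 0.30 after the GC correction, and the difference in their changes was 0.46. In the other 5 pairs (HDAC7/HDAC9, KMT2A/KMT2B, KMT2C/KMT2D, BAZ2A/BAZ2B and PRMT1/PRMT5) the ratios overlapped between the groups, with exact permutation p of 0.80 to 1.0.

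**Figure D4:**
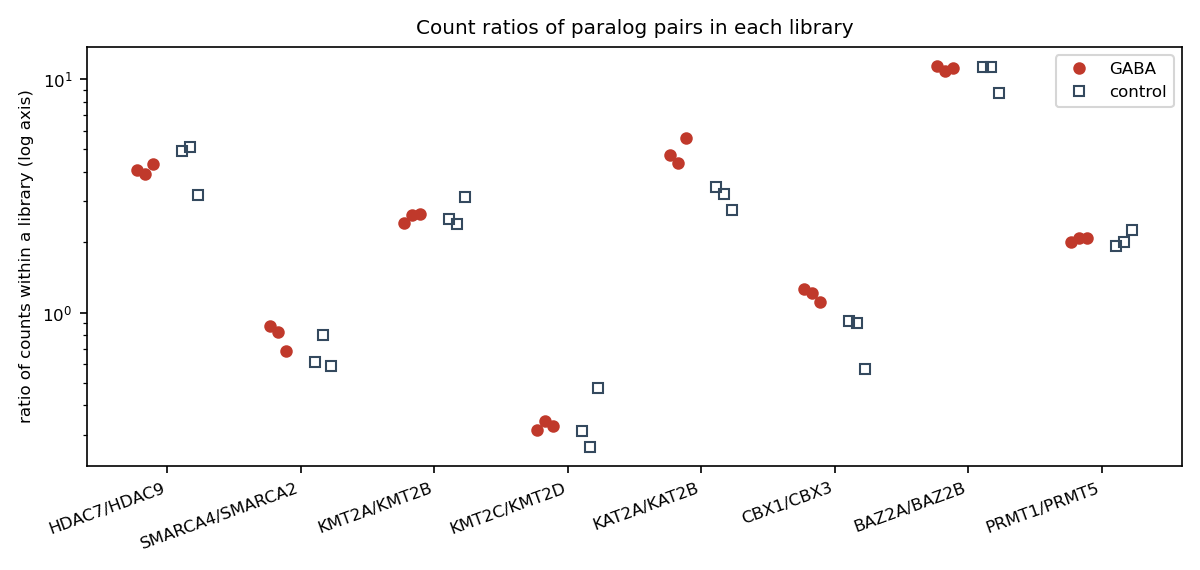
Ratio of the raw counts of 2 paralogs within each library (log axis) for 8 pairs; filled circles are GABA libraries and open squares control libraries. The groups stand apart for KAT2A/KAT2B and CBX1/CBX3 and overlap in the other pairs. In the pairs that stand apart, the CPM of each gene alone did so too, in opposite directions.

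Among the remaining readers, ING5, a subunit of acetyltransferase complexes, had 115, 99.9 and 119 CPM with GABA and 147, 165 and 147 CPM in control (-0.46 ± 0.09, adjusted p = 8.5e-04). PHF21A (BHC80), of the LSD1 and CoREST complex, had 91.5 ± 2.59 CPM with GABA and 116 ± 7.42 CPM in control (-0.34 ± 0.08). PHF12, a SIN3 partner, had 257 ± 4.07 CPM with GABA and 208 ± 5.44 CPM in control (0.31 ± 0.06), while PHF10, a PBAF subunit, and PHF11 had -0.29 ± 0.08 and -0.32 ± 0.11. The call of PHF11 was lost without GABA replicate 1 or 3 (-0.30 and -0.29; adjusted p = 0.056 and 0.061). Neither PHF10 (-0.06, adjusted p = 0.30) nor PHF11 (-0.13, adjusted p = 0.17) passed after the GC correction.

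The 2 high mobility group genes had the smallest changes of the 56 before the GC correction, though not after it. HMGB1, a DNA-bending protein and released alarm signal, had 483, 482 and 467 CPM with GABA and 436, 418 and 416 CPM in control (0.17 ± 0.06, adjusted p = 0.016). HMGN2, which binds nucleosomes, had 488, 476 and 465 CPM with GABA and 580, 542 and 501 CPM in control (-0.18 ± 0.07, adjusted p = 0.020). Both have many processed pseudogenes, so reads could be shared among copies. The call of HMGB1 was lost without GABA replicate 1 or 2 (0.17 each; adjusted p = 0.061 each), and that of HMGN2 without GABA replicate 2 or 3 or control replicate 1 (-0.18, -0.17 and -0.13; adjusted p = 0.062, 0.077 and 0.099) and with DESeq2 or its size factors (adjusted p = 0.070 and 0.062). The GC correction gave HMGB1 0.39 (adjusted p = 3.6e-05) and HMGN2 -0.06 (adjusted p = 0.41). Per kilobase of the longest transcript, HMGN2 had the highest level of the 56 members at 427 CPM per kb, followed by PRMT1 at 237, CBX3 at 149 and CBX1 at 126, and PRMT9 the lowest at 5.31 (median 29.5).

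Histone chaperones, which hand histones to DNA, rose in 9 of 14 tested genes, fell in 4 and did not pass in 1, ASF1A (34 in the list; 1 lower without GABA replicate 1 and 2 without GABA replicate 3). After the GC correction 5 were higher and 3 lower. ASF1A had -0.31 ± 0.15 (adjusted p = 0.055); it passed without control replicate 2 (-0.44, adjusted p = 0.0092) and had -0.13 without control replicate 3 and -0.09 after the GC correction (adjusted p = 0.24 and 0.45). SUPT6H, an elongation chaperone, had 607 ± 18.5 CPM with GABA and 465 ± 42.6 CPM in control (0.39 ± 0.07), and TONSL, which reads newly placed histones at replication forks, 87.3 ± 4.07 and 63.3 ± 6.42 CPM in the same order (0.46 ± 0.10; 0.20 after the GC correction, adjusted p = 0.023). Genes that make, use or clear methyl and acetyl donors or cofactors were mostly lower, with 9 of 13 tested genes down and 4 up (25 in the list, median -0.33). After the GC correction 8 were down and 2 up. Before it, the rises included the suppliers ACLY and MTR (0.28 ± 0.07 and 0.33 ± 0.07). Both were named after their values were seen, and their values after the correction are not given here. The counts of this list are therefore not a measure of donor supply. NMNAT2, which makes NAD, the cofactor of sirtuins, had 59.3, 57.8 and 59.4 CPM with GABA and 116, 112 and 115 CPM in control (-0.96 ± 0.08, adjusted p = 3.7e-06). This change was larger than that of any of the 56 members. IDH1, a source of the 2-oxoglutarate that JmjC and TET enzymes use, had 114, 130 and 114 CPM with GABA and 215, 191 and 235 CPM in control (-0.84 ± 0.09, adjusted p = 2.4e-05). MAT2A, which makes the methyl donor S-adenosylmethionine, had -0.29 ± 0.06, NNMT, which consumes it, -0.57 ± 0.07 and AHCY, which clears its product, 0.25 ± 0.06; these 3 were named after their values were seen. AHCY did not pass after the GC correction (0.10, adjusted p = 0.064).

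The 2 genes taken by name only also rose. NSDHL, which removes methyl groups from sterol precursors, had 83.1, 74.3 and 74.2 CPM with GABA and 61.9, 61.4 and 45.3 CPM in control (0.46 ± 0.12, adjusted p = 0.0049), and CHD9NB 26.8 ± 0.89 CPM with GABA and 18.5 ± 3.53 CPM in control (0.53 ± 0.15, adjusted p = 0.0062). Without them, 32 members rose and 22 fell.

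Rising and falling members differed in base composition. The longest transcript had a median GC content of 51.1% in the 34 rising members and 41.9% in the 22 falling members, against 52.8% and 45.4% in all rising and falling genes tested. Of 22 members under 45% GC 6 rose, and of 34 at 45% or more 28 rose; among all tested genes these shares were 30.0% of 1786 and 57.4% of 3194. Across the members the log2 fold change and GC content had Pearson's r = 0.42 and Spearman's rho = 0.46 (n = 56 genes from the same 6 libraries, a description), against 0.19 and 0.22 across all tested genes. Against this trend, HDAC7 and HDAC5 fell at 62.3% and 61.2% GC, and HMGB1 rose at 37.9%.

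Control replicate 3 moved with the same property. Its log2 difference from the mean of control replicates 1 and 2 had r = -0.72 with GC content across the members and -0.55 across all tested genes, so that GC-rich transcripts were lower in that library. It was also the library with 9.11% mitochondrially encoded counts, against 7.74% and 7.14% in the other control libraries. Without it, 33 members were higher and 19 lower, and r between fold change and GC content was 0.29 across the members. After the GC correction of every library, 1920 of all tested genes were higher and 1930 lower, 3850 called in all against 4918 before it. The correction was fitted on the listed genes of each library, so it also removes a GABA difference that follows GC content. Among the members, 26 were then higher and 12 lower, no member changed sign, and 18 calls were lost. Those lost included TET3, KAT2A, KAT5, HDAC6, KMT2B, KMT2D and PHF1 among the rises (log2 fold changes 0.02 to 0.17; adjusted p = 0.074 to 0.78) and HMGN2, HDAC9, KDM7A, KDM1B, PRMT9, SETDB2, SETD7, PHF10, PHF11 and SMARCAD1 among the falls (log2 fold changes -0.22 to -0.03; adjusted p = 0.056 to 0.70). The values nearest 0 were those of KMT2B (0.02), PHF1 (0.03) and SMARCAD1 (-0.03). In the same correction DNMT1 had 0.54, SMARCE1 0.74, SMARCA4 0.38, PHF19 0.37, KMT5B -0.35, KDM3A -0.33, PRMT3 -0.26 and ING5 -0.53, and all 8 passed. HMGB1, HDAC7, HDAC5, KMT2E and BAZ2B moved away from 0 by over 1.5 times.

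**Figure D5:**
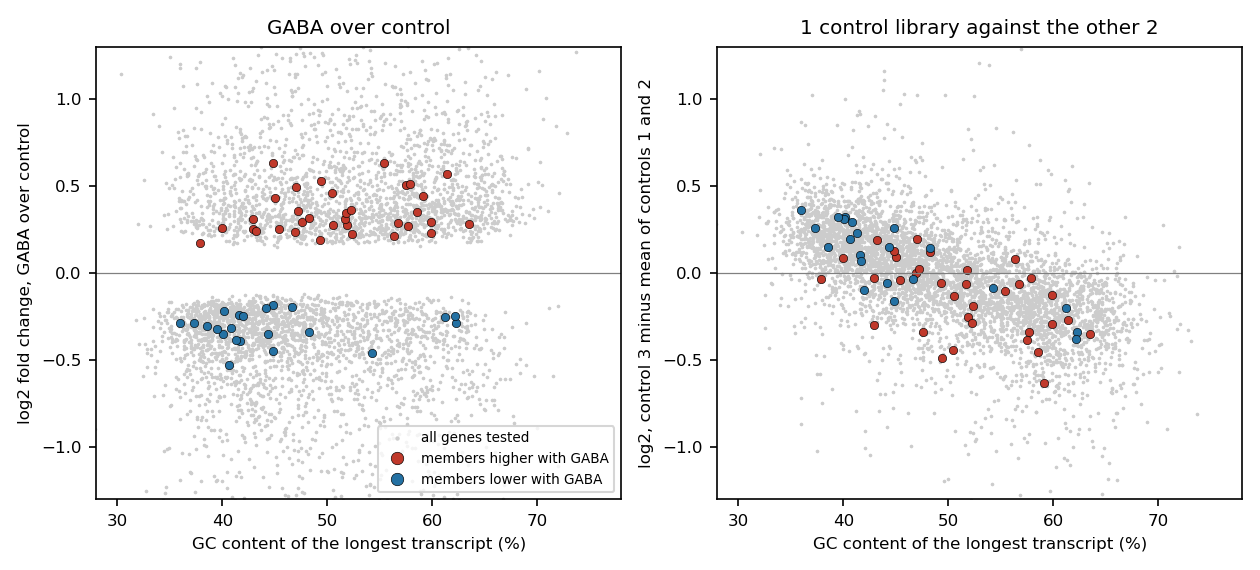
GC content of the longest transcript against the log2 fold change of GABA over control (left) and against the log2 difference of control replicate 3 from the mean of the other control libraries (right); grey points are the tested genes within the plotted range, coloured points the 34 rising and 22 falling members. At the left the band around 0 is empty because the files list few genes of small change, and falling members gather at low GC; at the right points slope downward.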

How the data were processed

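Counts per gene were deposited by the authors as whole numbers, 1 file per library, per the file headers. Per the submitters' processing notes, CASAVA 1.8, Bowtie 0.12.2 and the hg38 build were used; the counting program, annotation, strand setting and the rule by which 5187 genes were listed are not given in the sources used here. Identifiers were paired with symbols through a gene name table (5173) or GENCODE 29 (14), which also gave gene types, coordinates and transcripts.

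All listed genes were tested with edgeR 4.0.16 in R 4.3.3: filterByExpr (minimum count 10, minimum total 15; 206 genes removed), TMM scaling, a robust quasi-likelihood fit and the Benjamini-Hochberg adjustment with a threshold of 0.05. Standard errors come from that fit, SDs from 3 libraries. CPM is relative to the listed genes, so it is not a share of all RNA. Fold changes are GABA over control. The script was tested on simulated counts with 200 changed genes among otherwise unchanged ones. The listed genes hold few unchanged genes, so that test does not bear on scaling or error rates in this list. Alternatives were other scalings and filters, DESeq2 1.42.0, limma-voom (limma 3.58.1), the replicate number as a block and each library left out; a GC and length correction, TMM computed after removing mitochondrially encoded genes, and a minimum absolute log2 fold change of 0.5 were added after seeing the data. Members, lists, pairs and tests were chosen with earlier results of these data known. In each role group the 3 largest rises and 3 largest falls were named, with a set of well-known genes and the 2 smallest p-values of each partner list; most other members were named to account for all of them. CHD9NB was moved out of the remodellers once its name was seen. Single values were tested with exact permutation tests (SciPy 1.17.1). Tables and figures used Python 3.11.15, pandas 2.3.3 and matplotlib 3.10.9. The values of 3 genes are not reported here. Values use all 6 libraries unless the text names one as left out.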

Additional observations from a re-analysis of the deposited data

How the results depend on the processing

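Over 896 gene and setting values, no member changed direction and 810 kept their call; of the 86 lost calls 51 came from leaving out a library (20 members), which also leaves fewer samples, 18 from the GC and length correction and 17 from other settings (7 members). The members called ran from 27 to 34 higher and from 15 to 20 lower with a library left out, and all called genes from 4025 to 4735. DESeq2 gave 34 members higher and 16 lower, and 54.8% of its calls over all genes were higher, against 48.2%. The GC and length correction left 12 members lower and a median log2 fold change of 0.13 over the members, against 0.24. Requiring an absolute log2 fold change of 0.5 or more left 6 members higher and 1 lower and 1821 genes in all, by its construction. With the replicate block, 34 members were higher and 21 lower and 4823 genes were called; same-numbered libraries shared no deviation (correlations 0.0003, -0.089 and -0.036).

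In the partner lists, the count of lower genes was 0 in the BAF list with DESeq2, with its size factors in edgeR, with library size only and after the GC and length correction (0 at an unadjusted p under 0.05 in each), and 0 to 1 with a library left out. It was 2 in the Polycomb list with DESeq2, its size factors and the GC correction (2 to 5 with a library left out). In the list of other methyltransferases, demethylases and their relatives it was 0 with DESeq2 and with its size factors (0 and 1 at an unadjusted p under 0.05). There it was 1 after the GC correction and 0 to 2 with a library left out. After the GC correction 4 BAF, 4 MLL/COMPASS, 4 INO80, 2 Polycomb, 5 chaperone and 2 donor genes were higher. In the acetyltransferase list 1 gene was then lower. With a library left out, lower counts were 1 to 3 (INO80) and 1 to 4 (chaperones), and higher counts 4 to 7 (corepressors), 3 to 5 (acetyltransferases) and 3 to 5 (DNA methylation). The cause of these shifts was not tested. Because the files hold few unchanged genes, no alternative shows how many chromatin genes did not respond. Of 512 values of 32 partner genes named (ACLY and MTR not among them), 493 kept their side of the threshold. BMI1, not past it, reversed to 0.0068 after the GC correction. With the replicate block, BMI1 and ASF1A passed (-0.18 and -0.30, adjusted p = 0.048 and 0.039).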
